A study of Rattus norvegicus with 241 samples.

Results

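The SMAD transducers of the TGF-beta pathway and the genes that dampen it were measured across the rat mammary gland. The members were chosen by name and not by a measured value, though earlier results of these data were known. They are SMAD2, SMAD3, SMAD4, SMAD6, SMAD7, SKI, SKIL, PMEPA1, SMURF1 and SMURF2. They make up 10 genes beside 16820 genes named in at least 1 bulk table. The bulk tables give 8 of the 10 members, and SKI and SKIL were measured here in single cells, whose tables give all 10.

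In this pathway a TGF-beta ligand brings together the receptors TGFBR2 and TGFBR1. TGFBR1 then phosphorylates SMAD2 and SMAD3, which join SMAD4, enter the nucleus and bind DNA at target genes. SMAD6 and SMAD7 are inhibitory SMADs that act at the receptor, and SMURF1 and SMURF2 are ubiquitin ligases that SMAD7 brings to it. SKI and SKIL (SnoN) are nuclear corepressors of the SMAD complex, and PMEPA1 is a membrane protein that holds SMAD2 and SMAD3 away from the receptor. SMAD7, SKIL and PMEPA1 are themselves switched on by the pathway, so their RNA is often read as feedback. In the mammary gland TGF-beta is known to restrain growth of the ductal epithelium.

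The rats were given vehicle or TGFBRi (LY2157299, galunisertib), a small molecule that inhibits the kinase of TGFBR1, at 75 mg/kg 2 times a day for 10 days. Young virgin ACI rats were treated from 35 days of age and sampled 0, 7 or 14 days after the last dose, and young virgin Sprague-Dawley (SD) rats from 24 days of age and sampled on day 0. Adult ACI rats, virgin or parous, were treated at 18 to 24 weeks of age and sampled on day 0. A further set of SD rats, first dosed at 21 days of age, all received the carcinogen NMU (50 mg/kg) after treatment and were sampled at day 87 with or without tumors. A further set of ACI rats got the same doses over 21 days, the first at 38 days of age, and at 60 days of age received implants with estradiol (E2) or with air only. Those rats were sampled at the end of that tumor experiment, and their day is not given here. Basal cells (CD24+ with high CD29), luminal cells (CD24+ with low CD29) and CD45+ leukocytes were sorted, and in NMU tumors EPCAM+ and CD45+ cells. The inhibitor reaches the whole animal, so no value here isolates 1 cell type's own signaling.

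The bulk data were 202 libraries with 4194912 to 52314784 reads on genes each. Each young ACI group held 3 rats, each young SD group 4 and each NMU group 3. Adult groups held 4 rats, except 2 parous vehicle and 3 virgin TGFBRi rats for CD45+ cells. The E2 experiment held 4 vehicle, 4 tumor-free and 2 tumor-bearing TGFBRi rats with E2, and 4 vehicle and 3 TGFBRi rats without it. Sorted single cells came from 3 and 3 ACI rats and from 6 TGFBRi and 3 vehicle SD rats, and whole glands from 6 TGFBRi and 3 vehicle SD rats. Single-cell libraries of sorted cells shared at most 7 cell barcodes, and those of whole glands 88 to 284 barcodes per pair. The basal and luminal libraries of 1 day 7 vehicle ACI rat have a description that calls the rat treated while their title and treatment label call it a control, and they are kept as vehicle. The day of 1 day 7 CD45+ library of a TGFBRi rat differs between its title and its other labels. Day 7 values are given with and without them where they matter, except between basal and luminal cells, where no fit left a rat out. Libraries of 4 of the 6 TGFBRi SD rats in the sorted single-cell data (replicates 2 to 5) stood apart from the other two, as described with those results.

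The promoter windows of PMEPA1 and SKIL are shown because both genes carry the letters that SMAD proteins are known to bind, CAGAC or its reverse complement GTCTG, and because both moved in the results. The windows run from 250 bases before the annotated start to 20 after it (RefSeq, GRCr8), and capitals mark CAGAC and GTCTG on either strand. The PMEPA1 window lies on the minus strand at chr3:182478630-182478899 and that of SKIL on the minus strand at chr2:114203553-114203822.
PMEPA1: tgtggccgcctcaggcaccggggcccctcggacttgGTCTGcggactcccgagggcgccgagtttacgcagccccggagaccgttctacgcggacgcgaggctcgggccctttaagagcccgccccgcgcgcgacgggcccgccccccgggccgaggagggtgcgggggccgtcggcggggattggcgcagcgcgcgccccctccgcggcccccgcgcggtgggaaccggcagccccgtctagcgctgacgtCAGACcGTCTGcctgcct
SKIL: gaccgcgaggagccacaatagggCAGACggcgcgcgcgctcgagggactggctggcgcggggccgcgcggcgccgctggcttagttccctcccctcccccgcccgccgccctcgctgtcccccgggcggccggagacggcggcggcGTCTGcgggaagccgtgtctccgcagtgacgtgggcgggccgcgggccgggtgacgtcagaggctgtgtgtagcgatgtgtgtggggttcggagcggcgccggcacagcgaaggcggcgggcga
PMEPA1 holds the letters 3 times, with 2 of them directly after the start and separated by 1 base, and SKIL holds them 2 times. RefSeq windows of 300 bases matched 8 of the 10 members, and the windows of the other matched members held neither CAGAC nor GTCTG. Among 33469 rat promoter windows of the same length 50.1% held either form and 16.1% held 2 or more. The joined form GTCTAGAC, searched on both strands, is in no member's window and in 0.197% of all windows. The letters GGCGCC were also searched and are in 3688 of the 33469 windows. PMEPA1 holds them 1 time, SKIL 2, SMAD7 2, SMAD3 1, and SMAD2 2 and 1 in its 2 windows. The windows of SKI, SMAD4 and SMURF2 hold none. The matches describe letters in the windows. PMEPA1 and SKIL were shown partly because they moved, and no test tied any match to a measured value.

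In vehicle rats PMEPA1 was the member that set basal cells apart from luminal cells most often. On day 0 in young ACI rats its normalized value (reads divided by the library's size factor) was 8898, 6493 and 4965 in basal libraries, and in the luminal ones it was 1797, 1550 and 1491. Every basal library was above every luminal library, and the difference was 2.04 on the log2 scale (SE 0.34, adjusted p = 3.95e-05, limma). SMAD2, a transducer, was at 1136, 1040 and 899 in basal and 664, 660 and 569 in luminal cells, again without overlap (log2 difference 0.70, SE 0.19, adjusted p = 0.00686, limma). These were the 2 of 8 members that passed an adjusted p of 0.05, beside 20.5% of all genes tested. SMAD7 was at 4613 ± 1416 against 1647 ± 300.1 (mean ± s.d., n = 3, log2 difference 1.45, adjusted p = 0.195, limma) with no overlap either. Here and below, the share of all genes whose groups do not overlap was not computed. With so few rats in each group some genes separate by chance, so a lack of overlap only describes the libraries.

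The basal and luminal cells came from the same rats, and a fit with the rat as a block called 7 of the 8 members on day 0, beside 45% of all genes in that fit. SMAD7 (log2 difference 1.45, adjusted p = 3.99e-06), SMAD6 (1.28, adjusted p = 0.00169), SMURF2 (0.71, adjusted p = 0.00357) and SMURF1 (0.54, adjusted p = 0.00877) were then also higher in basal cells by limma's adjusted p, and SMAD4 was lower (-0.40, adjusted p = 0.0356). SMAD3 was not called under the block (-0.23, adjusted p = 0.298, limma). The same 7 members were called when the day 0 vehicle libraries were fitted alone, beside 42.6% of all genes.

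The other vehicle groups gave PMEPA1 the same direction. It was 1.96 log2 units higher in basal cells on day 7 (adjusted p = 8.53e-05, limma) and 2.12 on day 14 (adjusted p = 2.55e-05). In NMU glands the difference was 1.50 (9974 ± 2034 against 3581 ± 1058, n = 3, adjusted p = 0.0024, limma). In adult rats it was 1.56 in virgins (adjusted p = 0.0213, edgeR) and 2.28 in parous rats (adjusted p = 0.00096, edgeR), where the reads of both sorts were scaled together. In young SD rats the difference was 0.74 and the groups overlapped (3454 ± 2151 against 1863 ± 817, n = 4, adjusted p = 0.233, limma). The young SD libraries sorted as basal carried high fibroblast marker reads. In normalized values, which are not divided by gene length, 7 fibroblast markers summed to 371020 to 594200 and the 10 basal markers to 170160 to 219690, against 5001 to 19784 and 5339 to 76036 in luminal libraries. In young ACI basal vehicle libraries the same lists summed to 15480 to 127480 and 175480 to 658680, in tables that were normalized apart. The part of fibroblast RNA in the young SD differences was not tested.

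SMAD6, which is best known as an inhibitor of BMP signaling, had a low level and was called higher in basal cells in 5 of the 7 vehicle groups of the bulk data. On day 0 in young ACI rats its mean was 389 in basal and 154 in luminal cells and it was not called in the fit over all groups (log2 difference 1.28, adjusted p = 0.172, limma). Its normalized value in young ACI vehicle rats was 177 ± 96 in basal and 45.1 ± 33.1 in luminal cells on day 7 (log2 difference 2.23, adjusted p = 0.0126, limma) and 174 ± 67 against 38.3 ± 5.64 on day 14 (2.10, adjusted p = 0.0157). In NMU glands it was 83 ± 20.1 against 9.66 ± 5.91 (log2 difference 3.11, adjusted p = 0.0225, limma). The adult differences were 1.76 in virgins and 2.04 in parous rats (adjusted p = 0.00805 and 0.00193, edgeR). The lowest of the 3 day 7 luminal values (9.52, beside 50.7 and 75.0) came from the rat whose labels disagree, and the day 7 call was not refitted without that rat. In young SD rats SMAD6 was at 40.1, 30.3, 41.3 and 64 in basal and 0, 50.6, 68 and 112 in luminal cells. The mean there was lower in basal cells (43.9 against 57.8), while the fitted log2 difference was 0.78, with 1 luminal library at 0. The groups overlapped and SMAD6 was not called (adjusted p = 0.548, limma).

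The background shares differed widely between these comparisons. The called members were 2 of 8 on day 7 (14.7% of all genes), 3 of 8 on day 14 (19.3%, PMEPA1, SMAD6 and SMAD2 at a log2 difference of 0.75), 4 of 8 in young SD rats (50.1%), 2 of 8 in NMU glands (21.9%), 4 of 8 in adult virgins (31.6%) and 3 of 8 in adult parous rats (40.8%). On day 14 SMAD2 was not called with the rat as a block (adjusted p = 0.203, limma, beside 20.7% of all genes). With the compared groups fitted alone neither SMAD2 on day 14 (adjusted p = 0.133, limma, beside 20.4%) nor SMAD6 on day 7 (adjusted p = 0.153, beside 9.3%) was called. In the young SD libraries, with the fibroblast markers given above, the 4 called members were SMURF2 (log2 difference 1.31), SMAD2 (1.10), SMAD4 (0.99) and SMAD7, which was lower in basal cells (-1.09, 85.8 ± 33.6 against 183 ± 66.9, n = 4). In adult virgins SMAD3 was lower in basal cells (-1.06, 1208 ± 314 against 2523 ± 823) and SMAD2 higher (0.55, 1029 ± 138 against 704 ± 110, adjusted p = 0.0357, edgeR), and in parous rats SMAD7 was higher (1.21, 4472 ± 1517 against 1930 ± 512). Leaving out adult virgin vehicle replicate 3 brought the calls over both adult groups from 7 to 3, and leaving out replicate 2 brought them to 4.

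Sorted single cells, with molecules counted by unique identifiers (UMIs) and summed per rat, added the corepressors. In ACI vehicle rats SKI was at 73.6, 88.1 and 69.4 CPM (a gene's UMIs scaled to a common total per rat) in basal and 33.6, 31.9 and 29.6 in luminal cells (log2 difference 1.27, adjusted p = 3.78e-08, edgeR). SKIL was at 211, 214 and 209 CPM in basal and 143, 136 and 116 in luminal cells (0.68, adjusted p = 2.78e-05). For both genes every basal library was above every luminal library. PMEPA1 stood at 986 ± 136 against 133 ± 8.85 CPM (log2 difference 2.88, adjusted p = 9.24e-11, edgeR). In all, 7 of 10 members were higher in ACI basal cells and none lower, beside 65.2% of all genes, with SMAD7 at 1.51, SMAD2 at 0.74, SMURF2 at 0.52 and SMURF1 at 0.34. In SD vehicle rats 4 of 10 were higher, beside 41.6%: PMEPA1 (1.95), SKI (1.73), SMAD7 (1.20) and SMAD2 (0.51). SMAD7 was thus higher in SD basal single cells (159 ± 59.7 against 61.9 ± 4.25 CPM, n = 3) and lower in the SD bulk libraries sorted as basal, whose fibroblast markers summed to more than their basal ones. The single cells had passed a filter on keratin reads, and cells that clustered with the other sort had been removed. The difference between the assays was not tested.

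**Figure D1:**
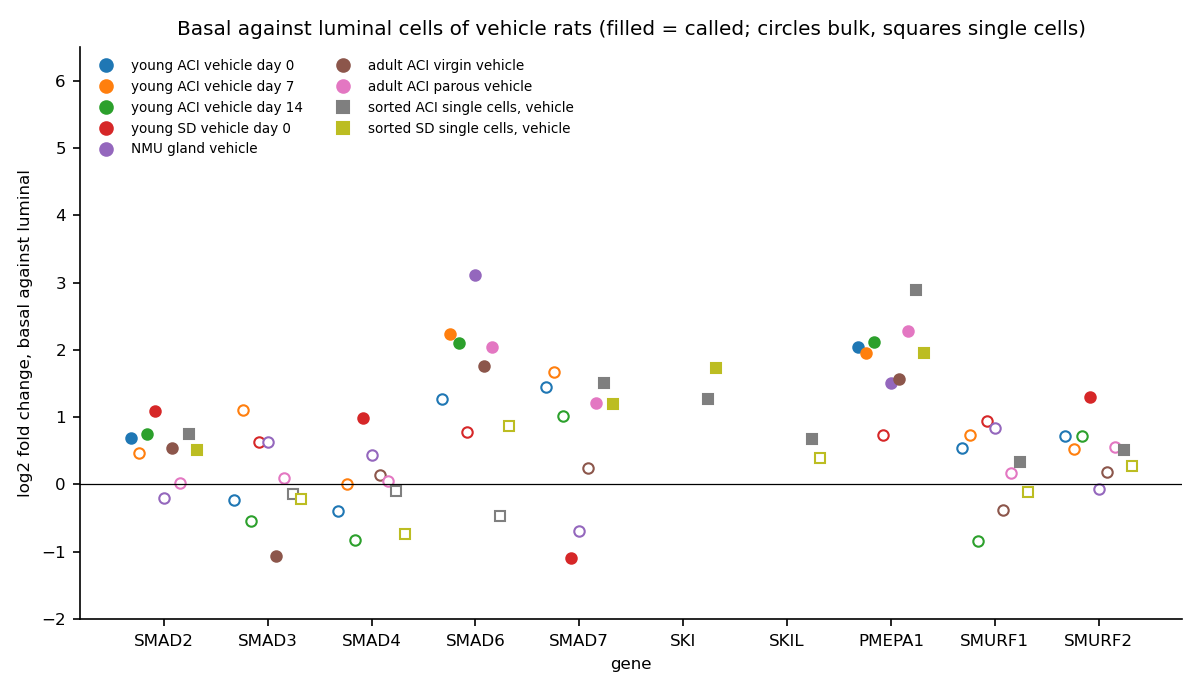
Log2 difference between basal and luminal cells of vehicle rats (vertical axis) for each member (horizontal axis); circles are bulk groups, squares sorted single cells, and filled symbols passed the adjusted p threshold (0.05 in bulk, 0.1 in single cells). PMEPA1 lies above 0 in every group and was called in all but the young SD bulk group, while SMAD3 and SMAD4 lie on both sides of 0.

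Other genes of the pathway were read beside the members as lists. Between basal and luminal cells of young ACI vehicle rats on day 0, 10 of 18 TGF-beta target genes were higher in basal cells and 1 was lower (median log2 difference 1.53), in the comparison that called 20.5% of all genes. CTGF, a matrix-associated growth factor, was higher by 5.08, and ITGB6, an integrin that releases active TGF-beta, by 4.55. The target list also holds TAGLN (7.60) and SNAI2 (7.17), of which TAGLN is a basal marker in its own right. Of 13 receptors, 4 were higher, among them the co-receptors ENG (4.20) and TGFBR3 (3.46), and BMPR1B was lower (-4.0). Of 7 genes in the ligand list, which also holds the latent TGF-beta binding protein LTBP1, none was higher and 2 were lower, INHBB (-3.21) and TGFB3 (-3.20). BAMBI, a decoy receptor, was higher (2.37), and LDLRAD4, which holds SMADs as PMEPA1 does, was lower (-2.01).

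On day 0 after TGFBRi treatment PMEPA1 was the member that fell in young ACI epithelium. In basal cells its normalized value was 2008, 2688 and 1448 after TGFBRi and 8898, 6493 and 4965 after vehicle. The highest TGFBRi library was below the lowest vehicle library. PMEPA1 fell by 1.73 on the log2 scale (SE 0.37, adjusted p = 0.0273, limma), and it was the 1 of 8 members called, beside 3.34% of all genes tested. In luminal cells PMEPA1 was at 436, 739 and 625 after TGFBRi and 1797, 1550 and 1491 after vehicle, again without overlap. It fell by 1.45 (SE 0.32, adjusted p = 0.0449, limma), as the 1 of 8 members called beside 1.01% of all genes. The difference between the 2 fractions in this response was -0.28 (adjusted p = 1, limma). The median log2 change of all genes was 0.30 for basal and 0.21 for luminal libraries. The TGFBRi libraries were shallower. Basal ones held 4194912 to 15136358 reads on genes against 12382292 to 18781674, and luminal ones 8922897 to 18568520 against 18895823 to 21160386. With the reads thinned to the lowest depth of each fraction PMEPA1 fell by 1.67 in basal cells (adjusted p = 0.0292, limma) and 1.51 in luminal cells (0.0394).

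These calls rested on few rats. In basal cells PMEPA1 lost its call in 4 of 6 fits that left out 1 library (log2 change -1.95 to -1.50, adjusted p = 0.0566, 0.0637, 0.0944 and 0.118, limma) and in luminal cells in 5 of 6 (-1.62 to -1.24, adjusted p up to 0.17). In luminal cells edgeR also gave an adjusted p of 0.123. The basal call was lost without replicate 1 or 2 of either group, and the luminal call stayed only without TGFBRi replicate 3. The direction held in each of these fits.

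Markers of the sorted cell type moved with PMEPA1 in basal cells. The summed value of 10 basal markers was 102870 to 210060 after TGFBRi and 254550 to 311720 after vehicle, with 1 of the 10 called lower (KRT5, a basal keratin). The summed value of 6 leukocyte markers was 479 to 1140 against 114 to 468, with LAPTM5 called higher, and that of 9 endothelial markers 755 to 1874 against 1851 to 10065, with SELE and SELP called lower. Single genes of the lists for other leukocytes, fibroblasts, lymphatic vessels and nerve were called higher (CD4, CD22, CSF3R, DCN, LYVE1 and MBP). Such a gene does not stand for its list. The part of these markers in the PMEPA1 value was not tested. In luminal cells the 7 luminal markers summed to 442840 to 483440 against 444440 to 475340 and the 10 basal markers to 1333 to 1695 against 1356 to 2412, with none called. The 6 leukocyte markers there summed to 378 to 606 against 142 to 320. In sorted bulk RNA, fewer cells of a type and less RNA per cell cannot be told apart.

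**Figure D2:**
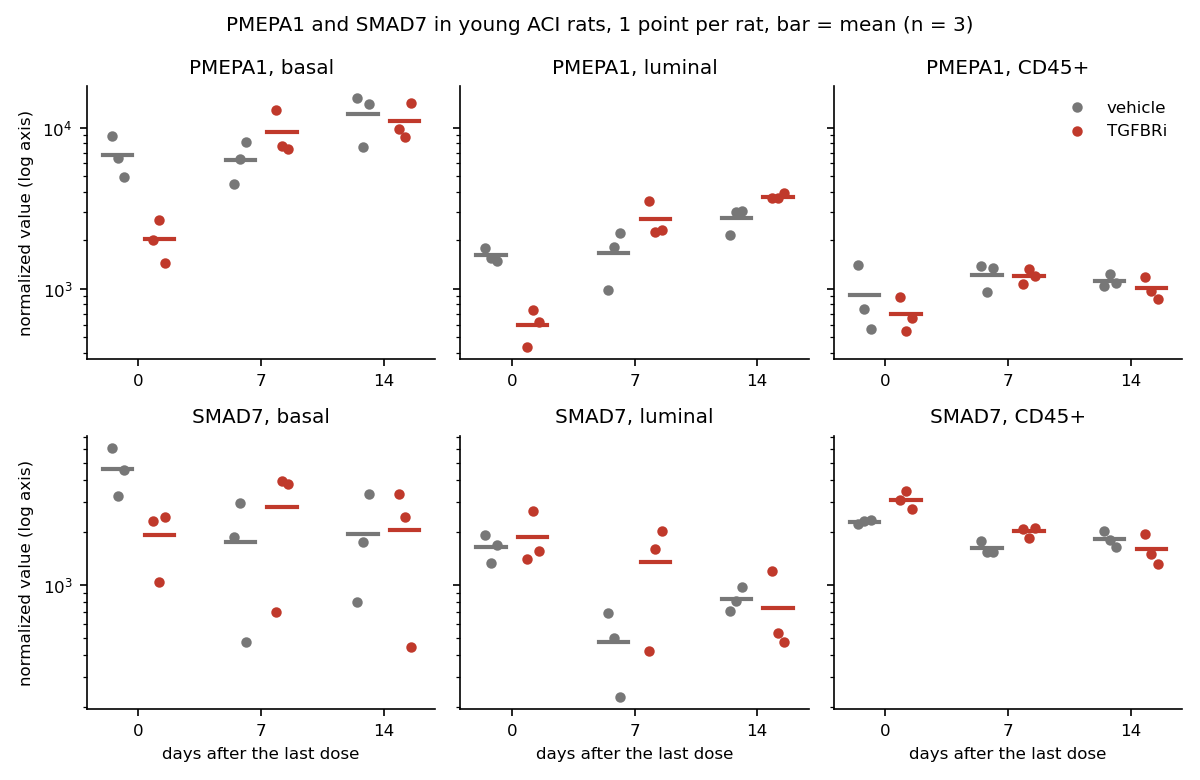
Normalized values (log axis) of PMEPA1 and SMAD7 by day after the last dose (horizontal axis) in young ACI rats, 1 point per rat, with bars at the mean of 3 rats; CD45+ libraries were scaled apart from epithelial ones. On day 0 the TGFBRi points of PMEPA1 lie below all vehicle points in basal and luminal cells, and on days 7 and 14 they do not.

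The other feedback genes did not pass on day 0. SMAD7 in basal cells was at 2312, 1038 and 2443 after TGFBRi and 6057, 3228 and 4554 after vehicle, without overlap (log2 change -1.31). It was called where the day 0 basal libraries were fitted alone (adjusted p = 0.0304, limma), a fit whose share of all genes called is not given here. In luminal cells SMAD7 overlapped between the groups (1417, 2664 and 1557 against 1925, 1329 and 1689). SMAD6 in luminal cells was at 227, 232 and 245 after TGFBRi and 164, 165 and 133 after vehicle, which did not overlap and did not pass.

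In CD45+ cells on day 0 SMAD2 was at 2269, 1638 and 1801 after TGFBRi and 871, 1177 and 1224 after vehicle, without overlap (log2 change 0.80, SE 0.22, adjusted p = 0.0617, limma). No member was called there by limma, beside 2.85% of all genes, and 3 had an unadjusted p under 0.05. DESeq2 and a TMM scaling each called SMAD2 (adjusted p = 0.00721 and 0.0464), and their shares of all genes called are not given here. PMEPA1 was at 892, 550 and 660 against 1410, 753 and 564. The CD45+ vehicle libraries held more RNA of other cells: the 10 basal markers summed to 4966 to 16421 against 259 to 561 after TGFBRi (8 of 10 called lower) and the 8 fibroblast markers to 369090 to 741400 against 23913 to 150470 (4 called lower). Of 5 neutrophil markers 4 were called higher. The part of these markers in the SMAD2 value was not tested.

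Few other pathway genes passed on day 0 in the same epithelial comparisons. In basal cells none of the 18 TGF-beta targets, 13 receptors, 7 genes of the ligand list, 3 BMP SMADs or 5 BMP targets was called. Of 15 other SMAD regulators FOXH1, a DNA-binding partner of SMADs, was higher (log2 change 3.91). The level of FOXH1 is not given here and the libraries differed in depth, so this change is not read as a response. In luminal cells 1 of 18 targets was called, LTBP2, a latent TGF-beta binding protein of the matrix (-3.62), and none of the other lists. The median over the 18 targets was -0.16 in basal and 0.01 in luminal cells, beside medians over all genes of 0.30 and 0.21.

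On days 7 and 14 PMEPA1 did not pass the test in either fraction. On day 7 PMEPA1 was at 12901, 7688 and 7413 in TGFBRi and 4443, 6427 and 8148 in vehicle basal cells (log2 change 0.55). In luminal cells it was at 3529, 2247 and 2310 against 976, 1822 and 2225 (0.74, adjusted p = 0.598, limma), all TGFBRi libraries above all vehicle libraries. Without the rat whose labels disagree these changes were 0.76 and 0.98, and neither was called. On day 14 they were -0.13 and 0.47. The day 0 effect minus the day 7 effect was -2.29 in basal cells (unadjusted p = 0.000535, adjusted p = 0.305, limma) and -2.19 in luminal cells (unadjusted p = 0.000167, adjusted p = 0.182), and against day 14 it was -1.60 and -1.92. None of 48 such member tests passed, beside 0.0351% of all gene tests, with 7 at an unadjusted p under 0.05. DESeq2 called 3 of them, all PMEPA1: basal day 7 (adjusted p = 0.0315), luminal day 7 (0.00127) and luminal day 14 (0.013). Its share of all gene tests is not given here.

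Over all 32 bulk comparisons of TGFBRi with vehicle, 2 of 256 member tests passed, beside 0.588% of all gene tests. That share is limma's. DESeq2 called 7 member tests, and its share of all gene tests is not given here, so the 7 cannot be set against a background. Leaving out 1 rat at a time in the limma fits gave 1 to 5, with 5 reached without adult basal virgin TGFBRi replicate 1, NMU basal tumor-bearing TGFBRi replicate 1 or E2 CD45+ tumor-bearing TGFBRi replicate 2. The 2 tests that passed by limma were PMEPA1 on day 0 in young ACI epithelium. Log2 changes lay below 0 in 125 of the 256 tests, and 25 had an unadjusted p under 0.05. PMEPA1 was lower after TGFBRi in 23 of 32 comparisons with a median log2 change of -0.30 (range -1.75 to 1.01). The other medians were 0.15 for SMURF2, 0.08 for SMAD7, 0.07 for SMAD2, 0.00 for SMURF1, -0.02 for SMAD3, -0.04 for SMAD4 and -0.09 for SMAD6. Several of these comparisons share their vehicle rats.

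**Figure D3:**
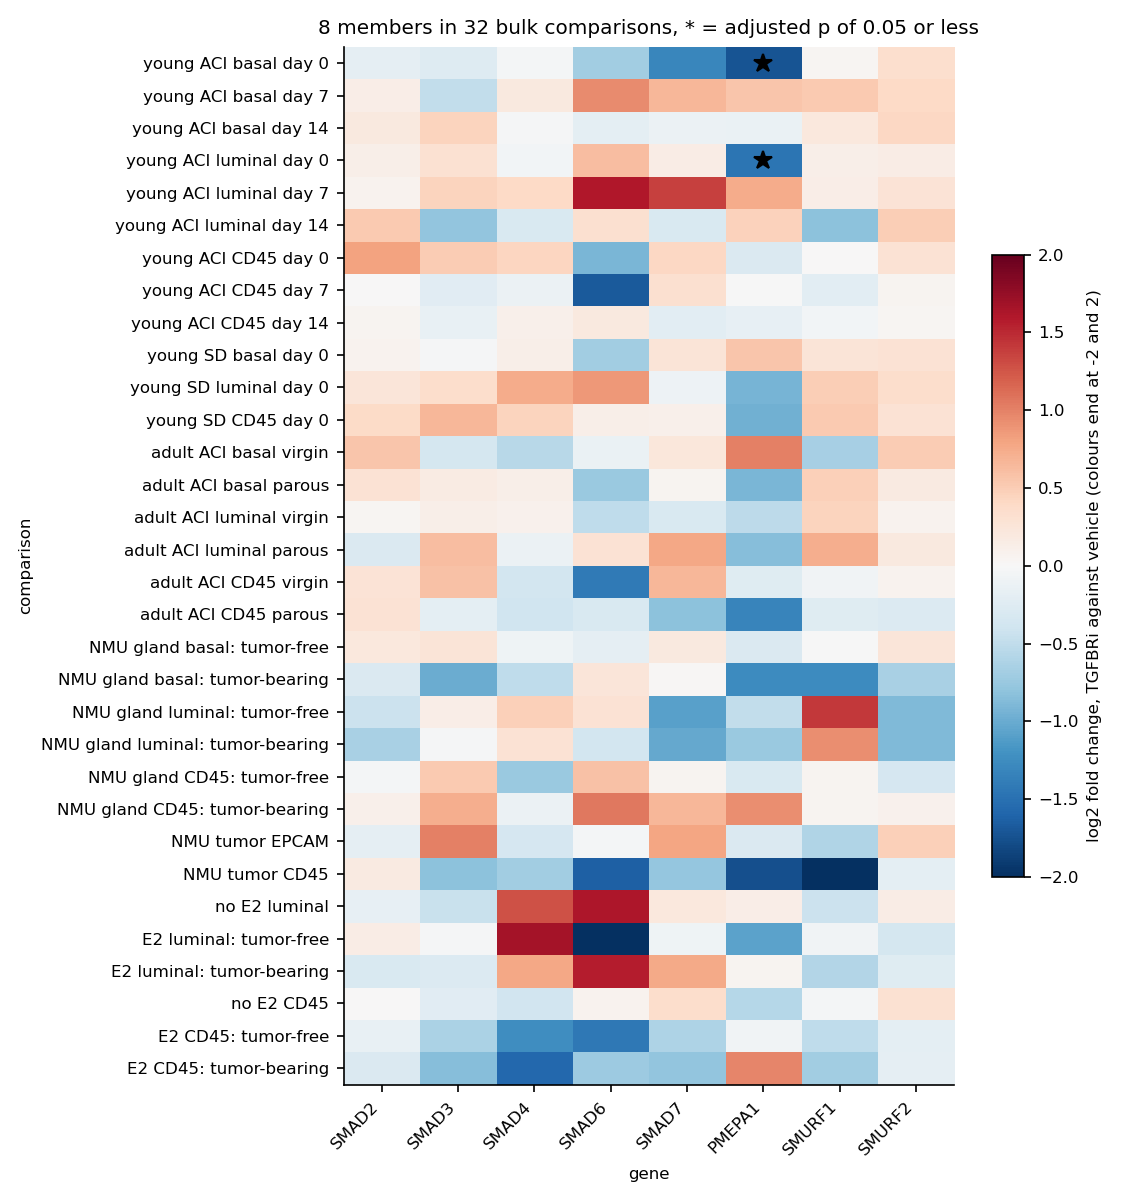
Log2 fold change of TGFBRi against vehicle (color) for 8 members (columns) in 32 bulk comparisons (rows); stars mark an adjusted p of 0.05 or less. Both stars are in the PMEPA1 column, on day 0 in young ACI basal and luminal cells.

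In young SD rats PMEPA1 was not called on day 0. The labels describe TGFBRi replicates 1 and 2 as weak and replicates 3 and 4 as strong responders, without saying what response was meant, so all 4 were kept as 1 group. In luminal cells PMEPA1 was at 1310, 1266, 452 and 891 in TGFBRi replicates 1 to 4 and at 909, 2862, 2061 and 1623 after vehicle (log2 change -0.92). Replicates 3 and 4 lay below every vehicle rat and replicates 1 and 2 did not, and the responder labels were not tested. In basal cells PMEPA1 was at 2798, 8721, 2694 and 4812 against 4764, 2177, 5731 and 1143 (0.55) and was not called, with fibroblast markers at 186560 to 621670 against 371020 to 594200. The test of the difference between the 2 fractions gave 1.48 (adjusted p = 1, limma). In adult virgin ACI basal cells PMEPA1 went the other way (22788 to 99355 against 16478 to 26478, n = 4, log2 change 1.01, adjusted p = 0.192, limma), with overlapping groups. In this comparison limma called 1173 of 13442 genes, 336 higher and 837 lower, and the median log2 change of all genes was -0.25. DESeq2 called SMAD2 there (0.59, adjusted p = 0.0476), at 1187 to 2037 against 939 to 1267, and limma did not (adjusted p = 0.106). The share of all genes called by DESeq2 is not given here. Schwann cell markers there summed to 14556 to 18558 against 12008 to 14511, as the 1 of 19 lists that did not overlap, and their part was not tested. In parous basal cells the PMEPA1 change was -0.91, and the difference between the parous and the virgin change was -1.93 (unadjusted p = 0.011, adjusted p = 0.173, limma). Over the 3 sorts 0 of 24 such member tests passed, beside 0.339% of all gene tests, with 3 at an unadjusted p under 0.05.

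All NMU vehicle rats that were sequenced bore tumors. In NMU glands the tumor-bearing and the tumor-free TGFBRi rats were set against the same 3 vehicle rats. PMEPA1 in basal cells of tumor-bearing TGFBRi rats was at 2698 to 6784 and in vehicle rats at 7689 to 11588, without overlap (log2 change -1.26, SE 0.30, adjusted p = 0.0578, limma). SMURF1 in luminal cells was at 1618 to 1769 in tumor-free TGFBRi rats and 568 to 695 in vehicle rats (1.41, SE 0.40, adjusted p = 0.086), and in tumor-bearing TGFBRi rats at 761 to 1568 (0.93, adjusted p = 0.251). Neither gene passed by limma. It called 174 of 13312 genes in basal cells of tumor-bearing and 134 of 14128 in luminal cells of tumor-free TGFBRi rats. The median log2 changes of all genes there were -0.25 and -0.32. DESeq2 called PMEPA1 in tumor-bearing and SMURF1 in tumor-free TGFBRi rats (adjusted p = 0.00999 for PMEPA1 and 0.00792 for SMURF1), and its share of all genes is not given here. Cell type markers moved with both genes. With PMEPA1, 4 of 19 marker lists did not overlap between the groups: basal markers summed to 653520 to 735170 in TGFBRi and 463520 to 563630 in vehicle rats, luminal progenitor markers to 18446 to 65250 against 10038 to 16655, Schwann cell markers to 3944 to 6425 against 8601 to 11197 and the plasma cell list to 34347 to 63305 against 80647 to 99565. With SMURF1, 5 lists did not overlap: mature luminal markers at 2116 to 7476 against 8149 to 15618, neutrophil markers at 115 to 195 against 211 to 2276, Schwann cell markers at 8731 to 10743 against 3451 to 6334, the plasma cell list at 71885 to 89577 against 24198 to 59659 and the mast cell list, which shares KIT with the luminal progenitor list, at 1279 to 1968 against 218 to 608. Their part in either value was not tested. The plasma cell list does not stand for plasma cells in sorted epithelium. In young SD basal vehicle libraries it summed to 23925 to 34999 beside leukocyte markers at 29 to 133. With 3 rats in each group some of 19 lists can separate by chance, and how many was not computed. In CD45+ cells of NMU tumors PMEPA1 was at 103.1 to 282 against 376 to 896 (-1.75) and SMURF1 at 43.9 to 158 against 240 to 678 (-2.07), each with an adjusted p of 0.663 by limma, and the plasma cell list summed to 1735 to 4355 against 5051 to 7443. There limma called 0 of 12641 genes. In luminal cells of rats with E2, SMAD4 was at 523 to 3533 in tumor-free TGFBRi rats and 377 to 574 in vehicle rats (1.66, adjusted p = 0.395, limma), and DESeq2 called it (adjusted p = 0.0151). By limma 2 of 13590 genes were called in this comparison, and the DESeq2 share is not given here. Leukocyte markers there summed to 218 to 430 against 667 to 2423 and mature luminal markers to 4334 to 6792 against 2068 to 3888, and their part was not tested.

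By limma over all groups of a fraction, no member passed between days, with parity or with E2 in vehicle rats. Between days, 0 of 48 member tests passed, beside 0.239% of all gene tests, and 8 had an unadjusted p under 0.05. The lowest adjusted p belonged to SMAD7 in luminal cells, at 1925, 1329 and 1689 on day 0 and 696, 498 and 230 on day 7 (log2 change -1.92, adjusted p = 0.111, limma). Without the day 7 rat whose labels disagree, which gave the 230, the change was -1.47 (adjusted p = 0.349), and that of SMAD6 went from -2.16 (adjusted p = 0.133) to -1.30 (adjusted p = 0.411, limma). Of 19 marker lists 3 did not overlap between day 7 and day 0 in luminal cells, all lower on day 7: the mast cell list at 157 to 1628 against 2892 to 4361, Schwann cell markers at 2507 to 3080 against 3946 to 4738 and adipocyte markers at 3227 to 5093 against 7468 to 8144. Their part was not tested. DESeq2 called 3 of the 48 tests between days, SMAD7 on day 7 and SMAD6 on days 7 and 14, all lower than on day 0 in luminal cells. Its share of all gene tests is not given here. With the day 0 and day 14 luminal libraries fitted alone 3 members were called, beside 7.02% of all genes. SMAD6 was lower (32.9 to 44.2 against 133 to 165, log2 change -1.99, adjusted p = 0.00392, limma), SMAD7 lower (708 to 978 against 1329 to 1925, -0.98, adjusted p = 0.0105) and PMEPA1 higher (2157 to 3054 against 1491 to 1797, 0.75, adjusted p = 0.0258) on day 14. Of 19 marker lists 8 did not overlap between these days, among them luminal progenitor markers at 465390 to 918460 against 197400 to 240220 and leukocyte markers at 384 to 751 against 142 to 320, and their part was not tested. Between parous and virgin rats 0 of 24 passed, beside 0% of all gene tests, with 2 at an unadjusted p under 0.05. With E2 against none, 0 of 8 passed in luminal cells (1.48% of all genes, 1 at an unadjusted p under 0.05) and 0 of 8 in CD45+ cells (0.282%, 3). In CD45+ cells PMEPA1 was 1.38 log2 units higher with E2 (adjusted p = 0.16, limma) and was called by DESeq2 with SMAD7 (adjusted p = 0.0451 and 0.0441), whose share of all genes by DESeq2 is not given here. Luminal epithelial markers in these CD45+ libraries summed to 1215 to 3125 with E2 and 7587 to 14296 without, as 1 of 4 lists that did not overlap. All E2 vehicle rats that were sequenced bore tumors and none without E2 did, so that E2 and tumors cannot be told apart.

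The genes whose values followed PMEPA1 most closely were LITAF, FSTL3, TGIF1, MSANTD3 and RGD1309676 (Pearson r of 0.88, 0.87, 0.87, 0.86 and 0.85 over 36 young ACI basal and luminal samples, after each fraction's mean was subtracted, among 9896 genes). FSTL3 binds and blocks activins, and TGIF1 is a corepressor of SMADs. For SMAD7 they were RGD1560108, PTPRG, ARHGEF11, ULK1 and TRAK1 (0.94, 0.93, 0.92, 0.92 and 0.92). PMEPA1 and SMAD7 had r = -0.33 with each other, while SMAD7 had r = 0.81 with SMAD4 and 0.79 with SMURF1. These are descriptions over samples that share rats, depth and treatment groups, with no test.

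In sorted ACI single cells the corepressors SKI and SKIL and the common transducer SMAD4 fell after TGFBRi, and the share of members called lay near the share of all genes. In ACI basal cells SKI was at 38.9, 38.8 and 39.7 CPM after TGFBRi and 73.6, 88.1 and 69.4 after vehicle, SMAD4 at 28.1, 23.7 and 28.7 against 53.8, 47.1 and 56.8, and SKIL at 147, 125 and 152 against 211, 214 and 209. None of these groups overlapped. SKI fell by 0.75 on the log2 scale (adjusted p = 0.000567, edgeR), SMAD4 by 0.74 (0.000861) and SKIL by 0.35 (0.0262), as 3 of 9 members tested, beside 33% of all genes. In ACI luminal cells the same 3 members were called of 10, beside 25%: SKI (-1.04), SMAD4 (-0.67) and SKIL (-0.35). SKI there was at 14.4, 12 and 11.8 CPM against 33.6, 31.9 and 29.6.

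PMEPA1 was not called in ACI single cells. In basal cells it was at 737 ± 99.7 CPM after TGFBRi and 986 ± 136 after vehicle, without overlap (n = 3, log2 change -0.19, adjusted p = 0.347, edgeR). In luminal cells it was at 123 ± 23.9 against 133 ± 8.85 (0.16, adjusted p = 0.38). The fitted changes rest on TMM scaling, whose factors were 0.891 to 0.953 for the TGFBRi and 1.07 to 1.09 for the vehicle basal libraries.

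Scaling by the total of UMIs alone set the TGFBRi values lower throughout the sorted cells. The median change of all genes went from -0.03 to -0.25 in ACI basal cells, from -0.01 to -0.28 in ACI luminal cells, from 0.07 to -0.32 in SD basal cells and from 0.08 to -0.26 in SD luminal cells. With that scaling SKI, SMAD4 and SKIL were called again in ACI basal cells (log2 change -0.98, -0.97 and -0.58), and PMEPA1 (-0.42, adjusted p = 0.0192, edgeR) and SMAD2 (-0.40, adjusted p = 0.00823) were called beside them. In ACI luminal cells SMAD7 (-0.51, adjusted p = 0.0909) and SMURF2 (-0.38, adjusted p = 0.0213) joined the same 3 members, and the PMEPA1 change turned from 0.16 to -0.11. The share of all genes called with that scaling is not given here. The added calls are therefore not read as a result about the members.

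In SD basal single cells SKI was at 26.7, 6.11, 8.79, 7.97, 9.72 and 33.8 CPM in the 6 TGFBRi rats and 63.2, 49.9 and 79.4 in the 3 vehicle rats. SKIL was at 109, 38.3, 43.2, 37.6, 59.3 and 133 against 251, 187 and 313. All TGFBRi rats were below all vehicle rats for both genes, and replicates 2 to 5 were lower than replicates 1 and 6. SKI (log2 change -1.71, adjusted p = 0.0379, edgeR), SKIL (-1.48, adjusted p = 0.0294), SMAD4 (-1.36, adjusted p = 0.0642) and SMAD7 (-1.07, adjusted p = 0.0677) were called, 4 of 9 beside 24.7% of all genes. In SD luminal cells SKI (-1.70), SKIL (-1.48), SMAD4 (-1.37), SMAD7 (-1.04) and PMEPA1 (-0.78) were called, 5 of 10 beside 31.8%. Scrublet, a doublet caller, marked 19.3% and 10.8% of cells in the luminal libraries of TGFBRi replicates 2 and 4 and 0 to 3.42% in the other single-cell libraries. Without the marked cells, a setting chosen after seeing the data, the same 4 basal and 5 luminal members were called, beside 24.7% and 32% of all genes. PMEPA1 there was at 163 ± 58 CPM after TGFBRi (n = 6) and 358 ± 44.7 after vehicle (n = 3), without overlap.

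The libraries of SD TGFBRi replicates 2 to 5 stood apart in both sorts. In basal cells 118 of 5544 well-measured genes were more than 1 log2 unit lower in these 4 libraries than in replicates 1 and 6, with none higher, and in luminal cells 134 of 5568. SMAD4 was among them in both sorts and SKI in basal cells. The widely used genes CTNNB1, ACTG1 and PABPC1, picked by name, were also low in the same libraries. CTNNB1, a junction and WNT pathway protein, was at 12 to 16.3 CPM in replicates 2 to 5, 52.7 and 54.5 in replicates 1 and 6 and 84.4 to 93.6 in vehicle basal cells. ACTG1, a cytoplasmic actin, was at 138 to 168, 509 and 546, and 630 to 731 CPM. PABPC1 was at 211 to 326, 1177 and 817, and 1095 to 1165 CPM, so that replicate 1 lay above every vehicle rat. The same genes were lower after TGFBRi in ACI basal cells, with CTNNB1 at 47.5 to 50.6 against 101.3 to 105.4 CPM, ACTG1 at 335 to 353 against 664 to 871 and PABPC1 at 699 to 775 against 872 to 939. In ACI luminal cells CTNNB1 (39.5 to 44.7 against 83.3 to 92.3) and PABPC1 (629 to 669 against 1135 to 1212) were also lower, while ACTG1 overlapped (261 to 402 against 387 to 565). In SD luminal cells ACTG1 was at 425 and 427 in replicates 1 and 6 and 389 to 418 in vehicle rats. The part of this pattern in the SKI, SKIL and SMAD4 values was not tested.

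Without replicates 2 to 5 no member was called in SD basal cells, beside 3.46% of all genes (n = 2 and 3, SKI -0.82, adjusted p = 0.148, SKIL -0.78, 0.167, SMAD7 -0.84, 0.212, SMAD4 -0.46, 0.306, edgeR). In SD luminal cells the same 5 members were still called, beside 15.4% of all genes: SMAD7 (-0.96, adjusted p = 0.0311, edgeR), SKIL (-0.88, adjusted p = 0.0351), SKI (-0.88, adjusted p = 0.049), SMAD4 (-0.49, adjusted p = 0.0704) and PMEPA1 (-0.56, adjusted p = 0.0844). Leaving out SD vehicle replicate 1 ended every call in both sorts, and leaving out vehicle replicate 3 every call in basal cells. Without TGFBRi replicate 3, 2 calls were left in basal cells, and without vehicle replicate 2 or 3, 3 were left in luminal cells. The differences of these effects between SD and ACI rats, and between basal and luminal cells, were tested for each member and none passed. All genes passed in 0.243% of tests between strains in basal and 0.00683% in luminal cells (0.855% and 0.16% without replicates 2 to 5), and in 0.426% between sorts in ACI and 0% in SD rats. For SKIL in basal cells the SD effect was 1.16 log2 units below the ACI effect (adjusted p = 0.382, edgeR), and without replicates 2 to 5 it was 0.46 below (0.5).

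**Figure D4:**
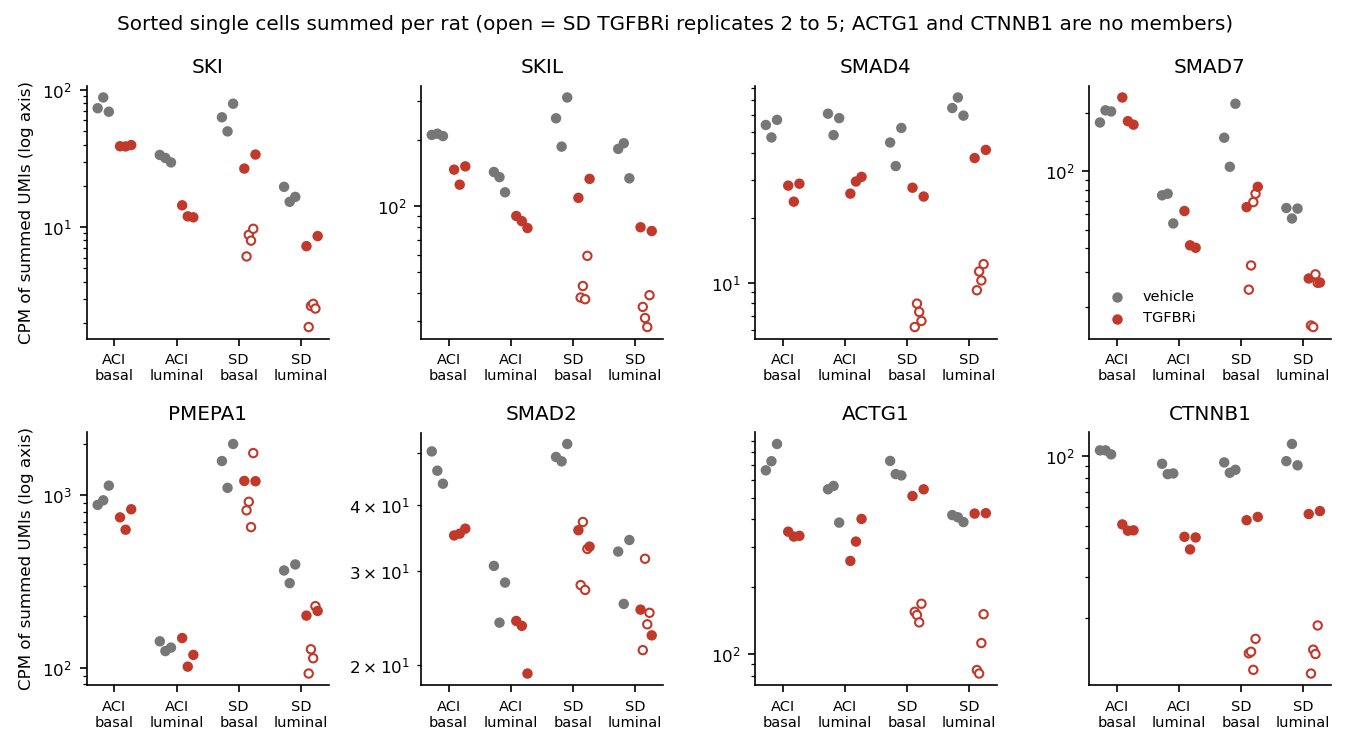
CPM of summed UMIs (log axis) in sorted single cells by strain and sort, 1 point per rat, for 6 members and for ACTG1 and CTNNB1, which are no members; open points are SD TGFBRi replicates 2 to 5. SKI, SKIL and SMAD4 lie below vehicle in every sort, and the open points lie lowest, as they do for ACTG1 and CTNNB1.

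The other genes of the pathway moved in both directions in sorted cells. In ACI basal cells 2 of 16 TGF-beta targets tested were higher and 7 lower (median log2 change -0.29), of 12 receptors 1 was higher and 4 lower, and of 7 genes in the ligand list 3 were higher. CCN2 (the current symbol of CTGF) fell by 2.47, BHLHE40, a transcription factor, by 1.25 and JUNB by 0.54, while SNAI1 rose by 1.31 and CDKN1A, a cell cycle inhibitor, by 0.82. The SMAD regulator LDLRAD4 fell by 1.21, and the BMP target ID3 rose by 1.52. In SD basal cells 1 of 17 targets was higher and 3 were lower, with CCN2 at -1.56 and BHLHE40 at -2.19. In luminal cells 2 of 17 targets were higher and 2 lower in ACI rats, and none of 16 was higher and 3 were lower in SD rats, among them CCN2 (-1.85) and LTBP2 (-2.55). The receptor gene TGFBR2 was lower in luminal cells of both strains (-0.52 in ACI and -1.02 in SD rats). In all, 5 of 12 receptors were lower and none higher in SD luminal cells. The shares of all genes called in these 4 comparisons are those given above.

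Whole SD glands, sampled on day 0 without sorting, gave 103524 cells in 35 clusters, of which 93.87% were named as 15 classes by marker genes. Over the 15 classes 23 of 140 member tests were called at an adjusted p of 0.1 or less, 8 higher and 15 lower after TGFBRi, beside 20.3% of all gene tests. Leaving out vehicle replicate 1 left 13. The basal-epithelium-like class held 8 of the 23, and 6 of the other 14 classes held none.

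In the basal-epithelium-like class the feedback genes were higher after TGFBRi. SKIL was at 41.7, 62.6, 29.6, 33.9, 26.3 and 44.4 CPM in the 6 TGFBRi rats and 16.8, 14.3 and 15.1 in the 3 vehicle rats. PMEPA1 was at 368, 431, 252, 273, 409 and 454 against 246, 178 and 195, and SMAD7 at 123, 117, 54.9, 83.8, 43.7 and 125 against 30.4, 23.9 and 39.9. In all 3 genes every TGFBRi rat was above every vehicle rat, and the share of all genes that separate in this class was not computed. SKIL rose by 1.37 (adjusted p = 0.00263, edgeR), SMAD7 by 1.58 (0.00883), SKI by 0.87 (0.00593) and PMEPA1 by 0.83 (0.0118). SMAD3 fell by 1.29 (27.0 to 44.6 against 64.53 to 107.04 CPM, adjusted p = 0.000313), SMURF2 by 0.42 (0.0421) and SMAD2 by 0.33 (0.0703). SMAD6 was called higher on 1 to 7 UMIs per TGFBRi rat and 0 to 4 per vehicle rat. These were 8 of 10 members, beside 44.1% of all genes in this class.

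The cells of this class came from different clusters in the 2 groups. Cluster 13, led by FST and KRT17, held 3710 vehicle and 669 TGFBRi cells, and cluster 28, led by genes that include KRT14 and ACTA2, held 422 vehicle and 4490 TGFBRi cells. Cluster 29, led by cell cycle genes, held 354 and 260. Within cluster 28 PMEPA1 was at 259 to 459 CPM after TGFBRi and 183 to 246 after vehicle and was still called (log2 change 0.85, adjusted p = 0.065, edgeR), beside 2.93% of all genes. SKIL (0.95, adjusted p = 0.179), SMAD7 (1.16, adjusted p = 0.237) and SKI (0.68, adjusted p = 0.322) were not called there, and SMAD3 was at 27.2 to 43.8 against 33.8 to 38.6 CPM (-0.02) with overlapping groups. SMURF2 and SMAD2 had the opposite sign there (0.10 and 0.13). Within cluster 13, on 4 to 47 SMAD3 UMIs per TGFBRi rat, SMAD3 (-1.53, adjusted p = 0.00651), SKIL (0.99, adjusted p = 0.00864), SMURF2 (-0.64, adjusted p = 0.0246), SMAD7 (1.11, adjusted p = 0.046) and PMEPA1 (0.48, adjusted p = 0.0663) were called, beside 35.2% of all genes.

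In the other classes members were called in either direction, most of them also called in the basal class. PMEPA1 was lower after TGFBRi in endothelium-like cells (log2 change -1.08, 9.24 ± 3.81 against 16.2 ± 5.91 CPM), fibroblast-like cells (-0.80, 36.3 ± 9.32 against 55.3 ± 13.5) and Schwann-like cells (-1.14), and higher in the leukocyte-like class (1.01, 45 ± 15.2 against 20.8 ± 7.59). SKI was higher in fibroblast-like cells (1.05, 10.1 to 12.3 against 4.24 to 5.22 CPM) and endothelium-like cells (0.71, 6.13 to 11.6 against 3.74 to 4.94), without overlap in either. SMAD3 was lower in fibroblast-like (-0.69), endothelium-like (-0.68), B-cell-like (-0.48) and vascular smooth muscle-like cells (-0.77), with overlapping groups in each. With scaling by the total of UMIs none of these SMAD3 calls remained (adjusted p = 0.106 to 0.249, edgeR), and the median change of all genes in fibroblast-like cells went from 0.04 to 0.26. In luminal-progenitor-like cells SMURF2 (-0.73), SMAD2 (-0.67) and SMURF1 (-0.57) were lower, and in luminal-epithelium-like cells SMURF1 (-0.52) and SMURF2 (-0.40). The clusters of some classes were also filled unequally. The luminal-progenitor-like class held 2967 vehicle and 4601 TGFBRi cells in cluster 18 and 966 and 3307 in cluster 19. The B-cell-like class held 1876 and 7301 in cluster 11 and 5349 and 6425 in cluster 12. The part of this in the calls was not tested. The shares of all genes called were 32.2% in endothelium-like, 29.4% in fibroblast-like, 10.7% in Schwann-like, 3.42% in leukocyte-like, 17.5% in B-cell-like, 27.4% in vascular smooth muscle-like, 26.8% in luminal-progenitor-like and 28.2% in luminal-epithelium-like cells. Over all cells of a gland, where 31.9% of all genes were called, SKI was called higher (0.35, 6.16 to 6.71 against 4.27 to 4.49 CPM) and SMAD3 lower (-0.85, 15.7 to 19.9 against 16.2 to 38.9).

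**Figure D5:**
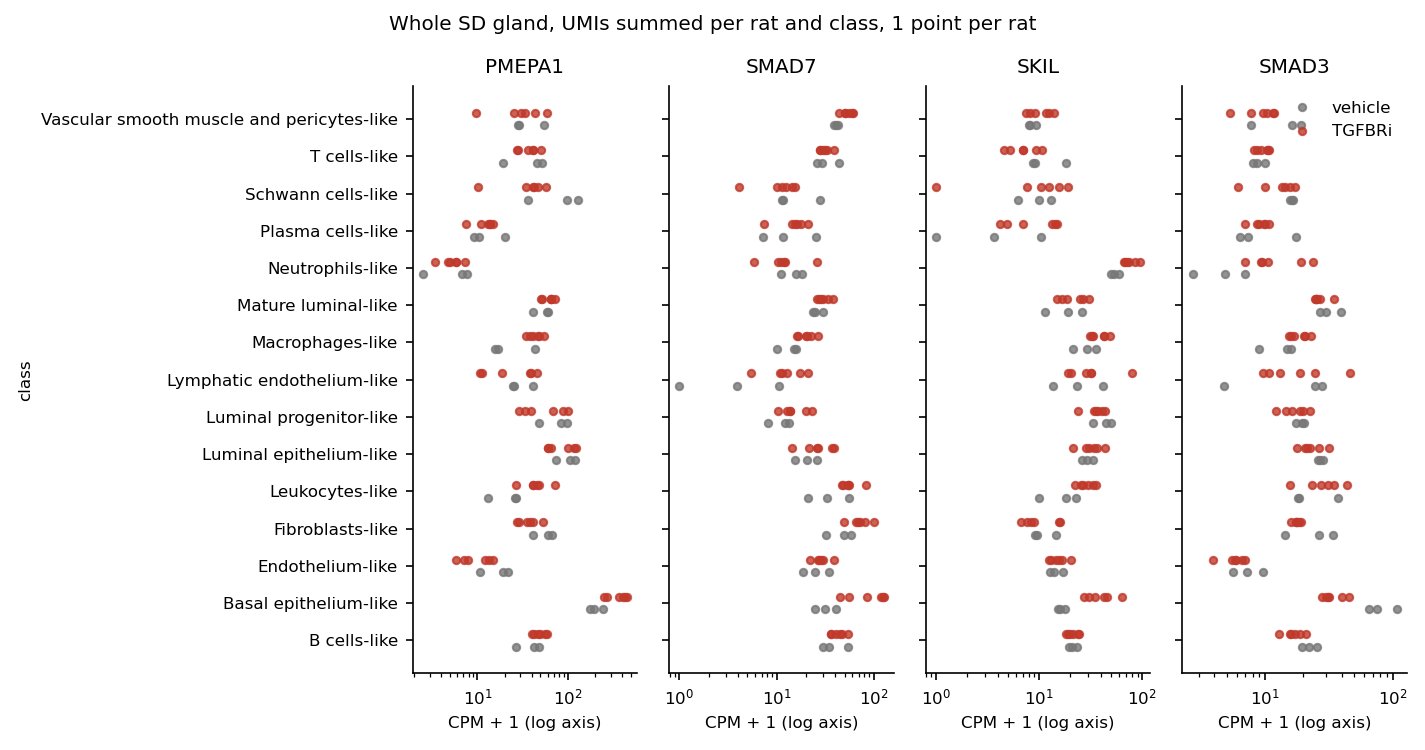
CPM + 1 (log axis) of PMEPA1, SMAD7, SKIL and SMAD3 in 15 classes of whole SD glands, 1 point per rat (3 vehicle, 6 TGFBRi). In the basal-epithelium-like class the TGFBRi points lie above the vehicle points for PMEPA1, SMAD7 and SKIL and below them for SMAD3.

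In the basal-epithelium-like class of whole glands 6 of 17 TGF-beta targets were higher and 1 lower, a share near the 44.1% of all genes, with CCN1 at 1.42, CCN2 at 0.60 and CDKN2B, a cell cycle inhibitor, at -1.55. In luminal-epithelium-like cells none of 17 was higher and 10 were lower (median log2 change -0.86), beside 28.2% of all genes called in either direction, among them the matrix genes FN1 (-2.47), COL1A1 (-1.94) and TGFBI (-1.37). In luminal-progenitor-like cells 1 of 17 was higher and 7 were lower, beside 26.8% of all genes, with ITGB6 at -3.44 and CCN2 at -2.53. The ligand gene TGFB3 was higher after TGFBRi in all 3 of these classes (1.60, 2.14 and 2.15) and INHBA, an activin subunit, was lower in all 3 (-2.39, -2.07 and -2.85). Among mature-luminal-like cells 0 of 16 targets were higher and 7 lower, beside 3713 of 13450 genes called. Beside the shares given above, the counts were 0 and 4 of 17 in B-cell-like, 2 and 5 of 17 in endothelium-like and 2 and 4 of 17 in fibroblast-like cells. They were 1 and 1 of 17 in vascular smooth muscle-like and 2 and 1 of 15 in Schwann-like cells. The part of RNA from other cells in these values was not tested.

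The whole-gland basal class and the sorted basal cells of SD rats on day 0 gave opposite directions for SKIL, SKI and SMAD7. The TGFBRi effect in the whole-gland class minus that in sorted cells was 2.91 for SKIL (adjusted p = 0.000575, edgeR), 2.71 for SMAD7 (0.00187), 2.63 for SKI (0.00235), 4.31 for SMAD6, which rests on few UMIs, 0.99 for PMEPA1 (0.0748) and -1.17 for SMAD3 (0.0424). Without sorted replicates 2 to 5 the values were 2.22, 2.49, 1.75, 3.97, 1.00 and -1.03, and each was still called. These were 6 of 10 members, beside 36.8% of all genes in this contrast and 32.5% without those replicates. The 2 data sets differ in cell selection and chemistry (sorted cells by their 3' ends, whole glands by their 5' ends), and in the clusters that hold the basal cells. Levels therefore stand side by side only: SKI was at 49.9 to 79.4 CPM in sorted vehicle basal cells and 4.92 to 6.09 in the whole-gland class.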

How the data were processed

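RNA was measured in bulk in sorted cells and in single cells of rat mammary glands. For the bulk files the authors aligned reads with STAR 2.5.1b to rn6, counted them without strand with HTSeq on refGene genes and divided them by DESeq2 1.30.1 size factors, so each deposited value is a normalized signal per gene. Whole reads were recovered from the step of each library (100% of values whole at a tolerance of 0.001), for 4194912 to 52314784 reads on genes. Young ACI basal and luminal libraries share a scaling, as do young SD and NMU gland libraries. All other fractions were scaled alone, so adult basal and luminal reads were scaled together here with edgeR, a deviation from the planned test, and the means beside those results are on that scale. Adult and E2 tables hold rows with no gene name (up to 42.5% of reads), which were left out. The deposited single-cell counts are UMIs from Cell Ranger 4.0.0 (sorted cells, 3' ends) and 7.0.0 (whole glands, 5' ends), after filters by the authors with Seurat of at least 100 genes and at most 15% mitochondrial reads per cell. In sorted cells the authors also removed cells with a PTPRC read or under 2 keratin reads. They further removed the few cells of 1 sort that lay in clusters made up almost wholly of the other sort. The part of that step in the differences between basal and luminal single cells was not tested. No further filter on cells was applied.

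Bulk values were tested with limma 3.58.1 on log2(value + 1), with the mean-variance trend and robust variances, over genes with a sum of values of 10 or more. All groups of a fraction entered 1 model, and genes were called at a Benjamini-Hochberg adjusted p of 0.05. Fold changes are on the log2(value + 1) scale, which understates those of low genes. UMIs were summed per rat and class and tested with edgeR 4.0.16 (quasi-likelihood, TMM) over genes with at least 10 UMIs at an adjusted p of 0.1. Whole-gland cells were clustered with scanpy 1.11.5 (Leiden, resolution 0.8), and clusters of at least 50 cells were named from fixed marker lists. Class names are rebuilt here and may differ from those of the study. Classes entered a test with at least 10 cells in each rat. Doublets were kept. Scrublet marked 0 to 3.42% of cells in each library but 2 (SD luminal TGFBRi replicates 2 and 4), so the 6% of cells of each library with the highest scores, and in sorted SD cells the marked cells, were left out as alternatives. The scripts were tested on simulated data. Intervals between replicates cover the spread between rats only.

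Basal and luminal libraries of a rat carry its name in the labels and so pair. Their deviations from the group means correlated above 0.1 in 16 of 18 young ACI, 6 of 8 young SD and 8 of 9 NMU rats (median r of 0.53, 0.17 and 0.20). Repeat libraries of an E2 rat were averaged. No pair of replicates agreed within sampling noise.

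By the naming rule all members were considered in every comparison that tests them, of which the called ones are named and others given by counts and ranges. Other pathway genes were to be given by list where called beside a called member, and are given for some of these comparisons only. Genes like PMEPA1 and SMAD7 are given by the 5 highest r. The same search for SKIL was not made, since it was measured here in single cells. The members and lists were chosen with earlier results of these data known.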

Additional observations from a re-analysis of the deposited data

Results flagged for a closer look

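A sample was flagged where its gap to the nearest other sample, divided by the range of its group, exceeded Dixon's 95% critical value. This held in 16 of 281 groups of 4 to 10 samples tested (5.69%), and chance flags about 1 in 20. In E2 luminal cells SMAD6 was at 7.52 in tumor-free TGFBRi replicate 1 and at 0 in the other libraries of that group, and at 222 in the vehicle rat replicate 3 without E2 (others 11.8 to 42.2). In adult rats PMEPA1 was at 8675 in luminal parous vehicle replicate 3 (others 5364 to 5521), and SMAD3 was at 1287 in CD45+ parous TGFBRi replicate 4 (754 to 832) and at 1589 in basal virgin TGFBRi replicate 3 (742 to 873). SMURF1 was at 1864 in basal virgin TGFBRi replicate 1 (601 to 794), and SMURF2 at 1232 in basal virgin vehicle replicate 1 (680 to 762).

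In young SD rats luminal TGFBRi replicate 2 stood apart for SMAD2 (562, others 307 to 341) and for SMAD4 (1767, others 1103 to 1200). SMAD6 was at 214 in CD45+ vehicle replicate 3 (30.4 to 41.5), SMAD7 at 724 in CD45+ vehicle replicate 1 (455 to 476), and SMURF2 at 169 in luminal vehicle replicate 1 (273 to 291). In TGFBRi rats of the whole-gland data SMURF2 was at 33.96 CPM in fibroblast-like cells of replicate 1 (40.8 to 43.9) and SMAD7 at 82.4 CPM in leukocyte-like cells of replicate 2 (46.1 to 54.04). Mature-luminal-like cells of replicate 6 stood apart for SMAD3 (34.03 CPM, others 23.5 to 26.2) and SMURF1 (25.1 CPM, others 16.98 to 20.01).

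The TGFBRi effect in basal single cells of SD rats differed between whole glands and sorted cells for 6 members by edgeR's test of the difference, beside 36.8% of all genes, at 4.31 log2 units for SMAD6, 2.91 for SKIL, 2.71 for SMAD7, 2.63 for SKI, 0.99 for PMEPA1 and -1.17 for SMAD3.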

How the results depend on the processing

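The 71 single-gene results called in the reported fits had 784 values under other settings. Of these, 627 kept their direction and side of the threshold and 155 were no longer called. The other 2 reversed, SMURF2 (0.10) and SMAD2 (0.13) in cluster 28 of the whole-gland basal class. Single-gene results that were not called in the reported fits did not enter this count. Of 506 counts of calls, 458 stayed within 1.5 times the reported count. With DESeq2 the calls over all bulk TGFBRi comparisons were 7 in place of 2, those on day 0 in CD45+ cells 1 in place of 0, those between days 3 in place of 0 in vehicle rats and 3 in place of 0 for the TGFBRi effect, and those with E2 in CD45+ cells 2 in place of 0. TMM scaling also gave 1 in CD45+ cells on day 0, and edgeR gave 0 in place of 1 in luminal cells. Fits on the compared groups alone gave 2 in place of 1 in basal cells on day 0, 7 in place of 2 between basal and luminal cells on day 0, 3 in place of 5 on days 7 and 14, and 3 in place of 0 between days. Library size scaling gave 5 in place of 3 in both sorts of ACI single cells, and leaving out TGFBRi replicates 2 to 5, chosen after seeing the data, gave 0 in place of 4 in SD basal single cells. The shares of all genes called under DESeq2, TMM scaling of bulk reads and library size scaling are not given here. Changed counts under these settings are therefore not read as results about the members. The causes were not tested.

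With the rat as replicate block, day 0 basal against luminal gave 7 calls in place of 2, and the block moved no other count by over 1.5 times (7 for 6, 6 for 5 and 12 for 11). SMAD2 on day 14 was not called under the block (adjusted p = 0.203, limma).

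Leaving out 1 rat at a time gave 0 to 1 calls on day 0 in basal, luminal and CD45+ cells each (1 in CD45+ cells without vehicle replicate 3), 1 to 5 over all bulk TGFBRi comparisons (5 without adult basal virgin TGFBRi replicate 1, NMU basal tumor-bearing TGFBRi replicate 1 or E2 CD45+ tumor-bearing TGFBRi replicate 2), 1 to 2 between basal and luminal cells on day 0, 4 to 6 in young SD and NMU rats, 3 to 7 in adults, 0 to 1 for effects between days and 0 between days, with parity and with E2. In single cells it gave 3 in ACI basal, 2 to 3 in ACI luminal, 0 to 4 in SD basal and 0 to 6 in SD luminal cells, 13 to 26 over whole-gland classes and 8 to 11 between sorts.

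Groups of 2 to 6 rats limit every count, and genes of few UMIs, SMAD6 above all, could not be resolved in single cells.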
